A study of Mus musculus with 12 samples.

Results

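The comparison asks whether the retina's response to oxygen-induced retinopathy (OIR) differed between mice labelled wild type (WT) and mice labelled Casp1 knockout (KO). It is the interaction term of a genotype by oxygen model, that is, the change from normoxia to OIR in Casp1 KO minus the change in WT, on the log2 scale. All 12 libraries of the series entered it, 12 of 12, with 3 in each of 4 groups: C57BL/6 mice labelled WT in normoxia, the same in OIR, Caspase1 knockout mice in normoxia, and the same in OIR. Retinas of both OIR groups were taken 3 days after the oxygen phase. For C57BL/6 pups the study's methods give 75% oxygen from postnatal day 7 to 12, then room air, with retinas taken at postnatal day 15 beside pups kept in room air (21% oxygen). For the Caspase1 knockout pups, the age, the oxygen level, the allele and the genetic background are not given in the sources used here, and neither is the number of animals behind a library. P-values therefore measure the spread between libraries, which may be technical in part. The methods state that male and female pups were used, and the sex of the pups behind each library is not given.

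In OIR, high oxygen halts the growth of the pup's retinal vessels and makes young capillaries regress. Back in room air the unperfused retina is short of oxygen, which stabilizes HIF transcription factors, raises Vegfa and drives abnormal vessel tufts, while Müller glia and astrocytes become reactive. Caspase-1 is the protease of the inflammasome. It matures interleukin 1 beta and interleukin 18 and opens pores through gasdermin D in myeloid and other cells. Müller glia are the radial support cells of the retina, which clear glutamate, recycle retinoids for cones, supply lactate and buffer ions and water.

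The targeted gene went against its label. Casp1 held 2, 0 and 1 reads in WT normoxia, 0, 1 and 3 in WT OIR, 45, 14 and 10 in Casp1 KO normoxia and 22, 19 and 16 in Casp1 KO OIR. Libraries labelled WT thus held 7 reads in all and libraries labelled Casp1 KO held 126. Casp1 lies on chromosome 9 from 5298517 to 5307265 (GRCm38, plus strand) and no annotated gene overlaps it. Reads came from transcript 3' ends, and whether they lie outside the deleted part cannot be told from the sources used here. Every direction below is therefore a direction between labels. If the 2 genotype labels were exchanged, each interaction would keep its size and change its sign. Total counts ran from 3391203 to 22815830 per library, the highest in WT normoxia replicate 2, so 3 counts, the limit that a count of 0 allows, equalled 0.133 to 0.887 CPM, a gene's reads scaled to the size of its library. That limit covers counting error only. WT OIR replicate 3 stood apart from its group: a chi-square of counts per degree of freedom was 14 and 13.2 against replicates 1 and 2, which gave 5.15 between them. The OIR labels were matched by Gfap, the intermediate filament of reactive glia. Gfap was measured at 25.2, 30.4 and 20.3 CPM in WT normoxia, 88.7, 81.6 and 68.1 in WT OIR, 22.9, 18.9 and 10.9 in Casp1 KO normoxia and 82.5, 91 and 86.4 in Casp1 KO OIR. The OIR and normoxia libraries did not overlap in either labelled genotype, and the interaction of Gfap was 0.67 (SE 0.27) with an adjusted p of 0.294.

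The interaction passed an adjusted p of 0.05 in 139 of 14287 genes tested with edgeR's quasi-likelihood test, 0.973% of them. The change with OIR was higher in Casp1 KO for 79 genes (0.553%) and lower for 60 (0.42%), with median interactions of 0.86 and -1.70 on the log2 scale, against 0.00 over all genes tested. OIR itself was called in 992 genes in WT (6.94%; 408 higher, 2.86%, and 584 lower, 4.09%) and in 492 in Casp1 KO (3.44%; 256 higher, 1.79%, and 236 lower, 1.65%), from the same fit. Of the 139 genes, OIR was called in WT alone for 79, in Casp1 KO alone for 35, in both with opposite sign for 11, in both with the same sign for 5, and in neither for 9. These classes come from the contrasts that make up the interaction, so they describe its form and are no further test of it. With the summed level of Y chromosome genes as a covariate 0 of the 139 were called in edgeR, and without WT OIR replicate 3 the count was 523 (both described with the sex-linked genes and the single libraries at the end).

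**Figure D1:**
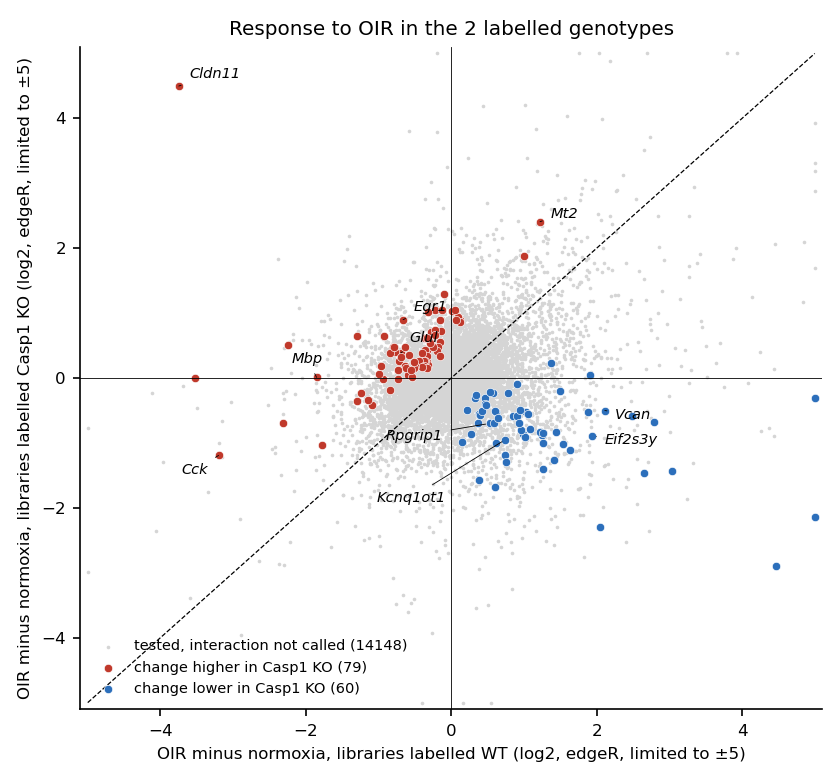
Each point is 1 of 14287 genes, with its log2 change from normoxia to OIR in the libraries labelled WT on the x axis and in those labelled Casp1 KO on the y axis (edgeR, 3 libraries a group, values beyond 5 drawn at the edge). The 79 genes called higher (red) lie above the dashed line of equal change, and the 60 called lower (blue) lie below it, with median WT changes of -0.42 and 0.94. The place of Cldn11 depends on the prior count, since its Casp1 KO normoxia libraries were at 0.

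By fitted values most of the 139 genes crossed, but only 11 had called changes of opposite sign, while 79 were called in WT alone. Genes picked for a large difference between 2 changes tend to show opposite signs. The shares below thus describe the called genes and are no test. Fitted OIR changes had opposite sign in the 2 labelled genotypes for 119 of the 139 genes, while 43.2% of all genes tested had opposite signs. In 71 of the 139 (51.1%) the 3 OIR libraries lay wholly on one side of the 3 normoxia libraries in WT and wholly on the other side in Casp1 KO, which held for 1.48% of all genes. By direction these were 34 of the 79 and 37 of the 60, against 0.637% and 0.847% of all genes. The fitted levels also differed between the labelled genotypes in each condition. Of the 79 called higher, 77 were fitted lower in Casp1 KO normoxia than in WT normoxia and 74 were fitted higher in Casp1 KO OIR than in WT OIR. Of the 60 called lower, 59 were fitted higher in normoxia and 60 lower in OIR. Over all genes, 52.2% had genotype differences of opposite sign in normoxia and OIR. The genotype difference passed the test in normoxia for 37 of the 139 and in OIR for 37, against 0.392% and 0.637% of all genes. In normoxia 21 of the 79 were called lower and 16 of the 60 higher (0.224% and 0.168% of all), and in OIR 21 of the 79 were called higher and 16 of the 60 lower (0.35% and 0.287%). These differences are parts of the interaction too. Measured as log2(CPM + 1) minus the gene's mean over the 12 libraries, the median over the 79 genes was 0.20 to 0.24 in the WT normoxia libraries, -0.27 to -0.24 in WT OIR, -0.21 to -0.12 in Casp1 KO normoxia and 0.15 to 0.18 in Casp1 KO OIR. Over the 60 genes it was -0.41 to -0.36, 0.23 to 0.71, 0.22 to 0.38 and -0.40 to -0.28 in the same order, with the ends of the WT OIR range in replicates 3 and 2.

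**Figure D2:**
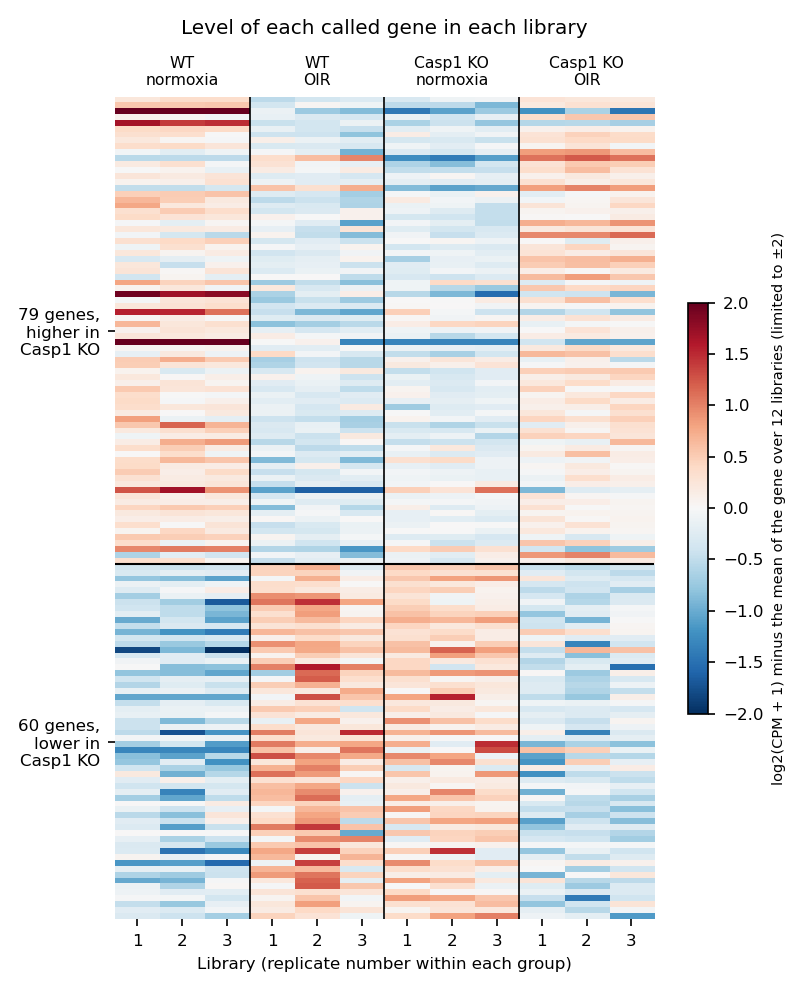
Rows are the 139 genes called, ordered by p within each direction, and columns are the 12 libraries; colour is log2(CPM + 1) minus the gene's mean over all libraries, limited to 2 either way. By their medians WT normoxia and Casp1 KO OIR lie on one side and WT OIR and Casp1 KO normoxia on the other, while single genes such as Mbp and Cryba1 are high in 1 group alone, and the medians of the 60 genes called lower in the WT OIR libraries are 0.43, 0.71 and 0.23.

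Several genes of the Müller glia list were called, each higher. Of 26 Müller glia genes listed, all tested, 8 were called higher and 0 lower, where 0.553% of all genes were called higher, and the list's median interaction was 0.65. The gene lists were chosen with earlier results of these data known, so their counts describe and are no test. Each list count below stands against 0.553% of all genes called higher and 0.42% called lower. Glul, glutamine synthetase, which turns glutamate taken up from synapses into glutamine, lies on chromosome 1 from 153899944 to 153909723 (plus strand). In WT, Glul stood at 1075, 1169 and 1177 CPM in normoxia and 642, 712 and 761 in OIR, and in Casp1 KO at 734, 870.1 and 875 in normoxia and 1115, 1074 and 1054 in OIR. WT fell without overlap and Casp1 KO rose without overlap, by -0.69 (adjusted p = 7.1e-06) and 0.39 (adjusted p = 0.0095), and the interaction was 1.08 (SE 0.13, adjusted p = 3.06e-05). An exon of Teddm2 on the other strand and the microRNA gene Mir8114 overlap Glul, and the strand setting of the counting is not given in the sources used here. Rlbp1, the retinaldehyde-binding protein that Müller glia and pigment epithelium use to carry retinoids, lies on chromosome 7 from 79374870 to 79387048 (minus strand). The level of Rlbp1 was 413, 418 and 413 CPM in WT normoxia and 283, 245 and 228 in WT OIR, against 273, 297 and 273 in Casp1 KO normoxia and 335, 346 and 330.3 in Casp1 KO OIR. Its level in WT normoxia stood above every other library, and the interaction was 0.98 (SE 0.14, adjusted p = 0.000137). Its change was called in WT (-0.72, adjusted p = 1.4e-05), while the fitted change in Casp1 KO was 0.26 (adjusted p = 0.15).

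Clu and Apoe, of the same list, rose in Casp1 KO. Clu encodes clusterin, an extracellular chaperone, and its interaction was 0.87 (SE 0.14, adjusted p = 0.000811), with mean levels (± SD, n = 3 libraries) of 523 ± 43.4 CPM in WT normoxia, 476 ± 57.4 CPM in WT OIR, 383 ± 19.2 CPM in Casp1 KO normoxia and 636 ± 19.7 CPM in Casp1 KO OIR. Apoe, which carries lipids to neurons, gave 0.78 (SE 0.14, adjusted p = 0.00225) from mean levels of 667 ± 52.3 CPM in WT normoxia, 728 ± 56 CPM in WT OIR, 488 ± 3.62 CPM in Casp1 KO normoxia and 912 ± 113 CPM in Casp1 KO OIR. Both rose with OIR in Casp1 KO, by 0.73 and 0.90, whereas the WT changes of -0.14 and 0.13 did not pass the test. Ptgds makes prostaglandin D2 and is also secreted as a carrier of small lipids. For Ptgds the 3 libraries gave 677, 657 and 616 CPM in WT normoxia, 579.8, 525 and 507 in WT OIR, 576, 488 and 573 in Casp1 KO normoxia and 816, 931 and 931 in Casp1 KO OIR. All 3 Casp1 KO OIR libraries stood above the other 9, and the interaction was 0.98 (SE 0.13, adjusted p = 8.18e-05). Dkk3, a secreted relative of Wnt inhibitors, is in the Müller glia list and was the 1 called of 16 norrin and Wnt genes, with an interaction of 0.75 (SE 0.14, adjusted p = 0.00386). Dmd, dystrophin, whose short forms anchor channels at Müller glia end feet, moved the other way. Dmd was measured at 670.4, 633 and 687 CPM in WT normoxia, 933, 917 and 732 in WT OIR, 909, 838 and 801 in Casp1 KO normoxia and 576, 546 and 622 in Casp1 KO OIR. WT rose and Casp1 KO fell, by 0.38 and -0.55, both called, with an interaction of -0.92 (SE 0.14, adjusted p = 0.000261) in a gene that spans chromosome X from 82948870 to 85206141.

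**Figure D3:**
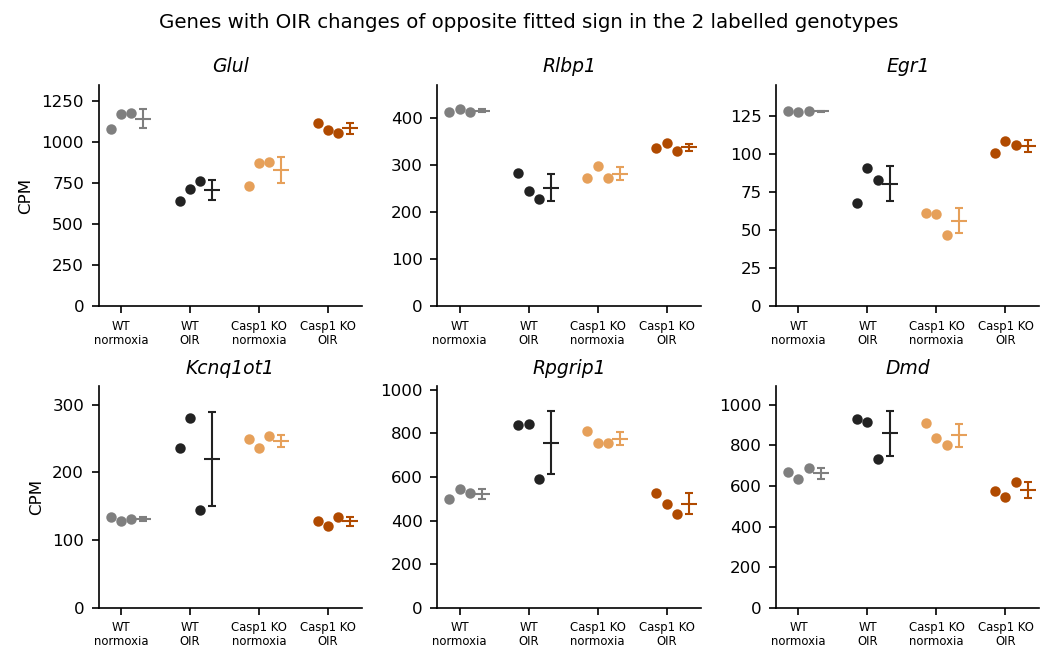
CPM in each of the 12 libraries for 6 genes, with the mean and SD of each group (n = 3) to the right of its points. Glul, Rlbp1 and Egr1 are lower in OIR in WT and higher in OIR in Casp1 KO, Kcnq1ot1, Rpgrip1 and Dmd are the reverse, and the lowest WT OIR point of these last 3 is replicate 3.

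Among neurons, most called genes of the inner retina were higher, and most of these fell with OIR in WT by the test and not in Casp1 KO. In the amacrine list 4 of 27 were called higher and 0 lower (14.8% called, median 0.57). These were C1ql1, a secreted synaptic protein of the C1q family, at 1.06 (SE 0.20, adjusted p = 0.00435), Gad2, which makes GABA, at 1.16 (SE 0.29, adjusted p = 0.0483), the neuropeptide gene Cck at 2.01 (SE 0.50, adjusted p = 0.0483), and Tfap2b, an amacrine transcription factor, at 0.57 (SE 0.14, adjusted p = 0.0483). In WT, C1ql1 stood at 141, 125 and 102 CPM in normoxia and 61.7, 66 and 58.1 in OIR, and in Casp1 KO at 101, 85.5 and 81.7 in normoxia and 85.4, 91.5 and 106 in OIR. WT OIR lay below all other libraries, and OIR changed C1ql1 by -0.99 in WT and 0.07 in Casp1 KO. Cck fell with OIR under both labels, by -3.20 and -1.19. The calls of Gad2, Cck and Tfap2b were lost with DESeq2 size factors and with library size alone in place of TMM scaling. Slc17a8, the vesicular glutamate transporter VGLUT3, gave 1.94 (SE 0.47, adjusted p = 0.0365). In the bipolar list 2 of 22 were called, both higher, among them Lrtm1, a leucine-rich repeat membrane protein, at 0.82 (SE 0.13, adjusted p = 0.00136). Prox1, the homeodomain factor of horizontal cells and some amacrine cells, was the 1 called gene of 11 horizontal cell genes. The level of Prox1 was 289.9, 269.8 and 260.3 CPM in WT normoxia and 238, 221 and 236 in WT OIR, against 175, 169 and 159.7 in Casp1 KO normoxia and 227, 225 and 249 in Casp1 KO OIR. Casp1 KO normoxia was below every other library, and the interaction was 0.72 (SE 0.14, adjusted p = 0.00849). None of 23 ganglion cell genes was called by edgeR (3 at an unadjusted p under 0.05, 0 by DESeq2 and median -0.12), although OIR was called in 13 of them in WT and 11 in Casp1 KO. With no filter on low counts edgeR called 1 of 24 ganglion cell genes lower.

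Photoreceptor genes went both ways. Of 32 rod genes 1 was called higher and 1 lower (median 0.03), and 10 and 4 without WT OIR replicate 3. Guca1b, a calcium sensor of guanylate cyclase in outer segments, was higher at 0.70 (SE 0.12, adjusted p = 0.00238), from mean levels of 702 ± 17.2 CPM in WT normoxia, 496 ± 18.7 CPM in WT OIR, 570.0 ± 40.1 CPM in Casp1 KO normoxia and 655 ± 25.3 CPM in Casp1 KO OIR. Rpgrip1, which holds RPGR at the connecting cilium of photoreceptors, was lower and lies on chromosome 14 from 52110704 to 52163546 (plus strand). For Rpgrip1 the 3 libraries gave 498, 545 and 526 CPM in WT normoxia, 837, 843 and 589.9 in WT OIR, 811, 758 and 758 in Casp1 KO normoxia and 527, 479 and 429 in Casp1 KO OIR. OIR changed it by 0.53 in WT and -0.70 in Casp1 KO, both called and neither overlapping, with an interaction of -1.23 (SE 0.15, adjusted p = 3.6e-05). An exon of Supt16 on the other strand overlaps it. Of 36 genes of the photoreceptor cilium 0 were called higher and 2 lower, with a median of -0.31 and 31 fitted lower. Without WT OIR replicate 3 it was 1 higher and 9 lower with a median of -0.18, and without WT OIR replicate 2 it was 1 lower. Beside Rpgrip1, the cilium gene called lower with all 12 libraries was Cep290, a gatekeeper of the ciliary transition zone, at -0.70 (SE 0.16, adjusted p = 0.03). Cacna1f, the calcium channel subunit of photoreceptor synapses, was lower at -0.77 (SE 0.17, adjusted p = 0.0167). Rtbdn, the riboflavin-binding protein retbindin, was higher at 0.68 (SE 0.16, adjusted p = 0.0345) although OIR was called under neither label.

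Egr1 was the only 1 of 27 immediate early genes called, a zinc finger factor induced within minutes by neuronal activity, growth factors and handling of tissue. It lies on chromosome 18 from 34859823 to 34864984 (plus strand). Egr1 was measured at 128, 127 and 128 CPM in WT normoxia, 67.9, 90.9 and 82.9 in WT OIR, 61.3, 60.9 and 46.7 in Casp1 KO normoxia and 101, 108 and 106 in Casp1 KO OIR. No 2 groups overlapped. OIR changed it by -0.66 in WT and 0.90 in Casp1 KO, both called, and the interaction was 1.56 (SE 0.19, adjusted p = 3.06e-05). The list's median was 0.26, with 5 of 27 at an unadjusted p under 0.05, a rate that was 12.5% over all genes.

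Of the genes of energy supply, Slc16a3, Slc2a1 and Uqcrc1 rose with OIR in Casp1 KO and did not pass the test in WT, as did Mif of the hypoxia response list. Slc16a3, the lactate exporter MCT4, gave an interaction of 1.18 (SE 0.20, adjusted p = 0.00225) from mean levels of 106 ± 13.1 CPM in WT normoxia, 97.4 ± 16.3 CPM in WT OIR, 62.2 ± 10.7 CPM in Casp1 KO normoxia and 129 ± 10.8 CPM in Casp1 KO OIR. Slc2a1, the glucose transporter GLUT1 of the blood-retina barrier, gave 0.76 (SE 0.18, adjusted p = 0.0336), with OIR changes of 0.12 in WT and 0.87 in Casp1 KO. They were the 2 called among 20 glycolysis genes (median 0.39), and 9 more had an unadjusted p under 0.05. DESeq2 called 6, limma-voom 5 and edgeR without WT OIR replicate 3 called 8 higher and 1 lower. Of 34 hypoxia response genes, 3 were called higher and 0 lower (median 0.30), namely Slc2a1, the cytokine gene Mif at 0.66 (SE 0.15, adjusted p = 0.0317) and Ndrg2 at 0.79 (SE 0.19, adjusted p = 0.0355). For Ndrg2 OIR was called under neither label. The hypoxia list had 1 called without WT OIR replicate 2, and 6 called higher and 1 lower without WT OIR replicate 3. Tkt, transketolase of the pentose phosphate pathway, was called in WT alone. In WT, Tkt stood at 262, 263 and 207 CPM in normoxia and 156, 156 and 119 in OIR, and in Casp1 KO at 232, 182 and 199 in normoxia and 253, 287 and 269 in OIR. WT OIR was below every other library, Casp1 KO OIR was above Casp1 KO normoxia and overlapped WT normoxia, and the interaction was 1.17 (SE 0.17, adjusted p = 0.000347). Uqcrc1, a core subunit of respiratory complex III, gave 0.61 (SE 0.14, adjusted p = 0.0324). It was the 1 called of 82 nuclear-encoded respiratory subunits, or 1.22%, near the 0.973% called of all genes. The antioxidant enzyme gene Prdx6 was the 1 called of 21 oxidative stress genes (4.76%), at 0.77 (SE 0.19, adjusted p = 0.04998). Hlf, a factor of the circadian output, was the 1 called of 19 clock genes (5.26%), at 0.72 (SE 0.15, adjusted p = 0.0138).

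The metallothionein genes Mt1 and Mt2 encode small cysteine-rich proteins that bind zinc and copper. They were the 2 called of 24 genes of glial reactivity, a list with a median of 0.07, and they rose with OIR under both labels. The level of Mt2 was 51.3, 51.9 and 52.2 CPM in WT normoxia and 96.5, 116 and 149 in WT OIR, against 31.3, 27.8 and 34.5 in Casp1 KO normoxia and 161, 177 and 161 in Casp1 KO OIR. For Mt1 the 3 libraries gave 137, 137 and 151 CPM in WT normoxia, 287, 242 and 320.1 in WT OIR, 106, 91.7 and 94.3 in Casp1 KO normoxia and 339.8, 384 and 346 in Casp1 KO OIR. For both genes OIR and normoxia did not overlap under either label. Mt2 rose by 1.22 in WT and 2.41 in Casp1 KO, and Mt1 by 1.0 and 1.87. The interactions were 1.19 (SE 0.21, adjusted p = 0.00221) and 0.87 (SE 0.16, adjusted p = 0.00386). The difference lay on both sides, since Casp1 KO was lower in normoxia, by -0.73 and -0.53, both called, and fitted higher in OIR, by 0.46 and 0.33, which did not pass the test. The genes are neighbours on chromosome 8, Mt2 from 94172664 to 94173568 and Mt1 from 94179082 to 94180327, both on the plus strand, and a predicted gene overlaps Mt2 on the other strand. Because they moved together, the 250 bases before each RefSeq start (GRCm38.p6) are shown. Capitals mark matches on either strand to TGCNCNC, a looser pattern than the core of the metal response element, so not every match need be a core site:
Mt1, chr8:94178839-94179088 (plus strand): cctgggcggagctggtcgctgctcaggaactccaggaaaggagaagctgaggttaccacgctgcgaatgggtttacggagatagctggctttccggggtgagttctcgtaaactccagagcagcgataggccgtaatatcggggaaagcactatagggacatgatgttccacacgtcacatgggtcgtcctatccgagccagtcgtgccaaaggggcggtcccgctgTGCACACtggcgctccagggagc
Mt2, chr8:94172368-94172617 (plus strand): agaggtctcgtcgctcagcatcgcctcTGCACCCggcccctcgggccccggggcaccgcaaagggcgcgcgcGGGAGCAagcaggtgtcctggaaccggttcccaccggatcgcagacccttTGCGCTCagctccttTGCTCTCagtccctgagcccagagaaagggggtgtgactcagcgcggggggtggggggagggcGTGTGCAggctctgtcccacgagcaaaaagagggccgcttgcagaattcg
The window of Mt1 held 1 match to this looser pattern and that of Mt2 held 5. Each window depends on the annotated start that was used, and letters after that start were not searched. The 2 counts therefore do not compare the whole promoters of the genes. At least 1 match was present in 43.8% of 27025 promoter windows of that length and 3 or more in 4.61%. Among the promoters of tested genes the shares were 53.2% and 7.13%, and a match describes letters only.

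Long noncoding RNAs made up much of the lower group. Of the 58 genes called lower that had an annotated type, 27 (46.6%) were long noncoding RNAs, against 1.27% of the 79 called higher and 8.70% of all tested with a type. Names of predicted genes or clones were 28 of the 60 and 1 of the 79, against 11.7% of all. Kcnq1ot1, the imprinted antisense RNA that silences neighbours of Kcnq1 on the paternal chromosome, lies within Kcnq1 on chromosome 7 from 143203458 to 143296549 (minus strand). Kcnq1ot1 was measured at 134, 128 and 132 CPM in WT normoxia, 236, 280.0 and 144 in WT OIR, 250.0, 237 and 254 in Casp1 KO normoxia and 128, 121 and 135 in Casp1 KO OIR. OIR changed it by 0.75 in WT and -0.95 in Casp1 KO, both called and without overlap, and the interaction was -1.69 (SE 0.21, adjusted p = 3.06e-05). Meg3, an imprinted noncoding RNA of chromosome 12, was the other called gene of 25 nuclear noncoding RNAs (0 higher and 2 lower, median -0.27). In WT, Meg3 stood at 1542, 1547 and 1537 CPM in normoxia and 2149, 2222 and 766 in OIR, and in Casp1 KO at 2229, 2094 and 2173 in normoxia and 1123, 1118 and 1023 in OIR. WT OIR replicate 3 was the lowest of all 12 libraries, and the interaction was -1.14 (SE 0.27, adjusted p = 0.0336). The call of Meg3 was lost by DESeq2 (adjusted p = 0.251), robust quasi-likelihood (0.37) and limma-voom (0.0905). Pnisr, a serine- and arginine-rich nuclear protein, was the 1 called of 37 splicing genes at -0.97 (SE 0.20, adjusted p = 0.0138). Its WT OIR libraries held 538, 524 and 283 CPM, the lowest again in replicate 3. The call of Pnisr was lost by DESeq2 (adjusted p = 0.0684) and robust quasi-likelihood (0.144), and without WT OIR replicate 3 the splicing list had 10 called lower and 1 higher. Reads of Kcnq1ot1 and of Meg3 cannot be told from those of genes that overlap them where strand was not used.

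The matrix genes Vcan and Col18a1 were lower, with a rise in WT. Vcan, versican, a large proteoglycan of the interphotoreceptor and vascular matrix, lies on chromosome 13 from 89655312 to 89742509 (minus strand). The level of Vcan was 8.16, 6.62 and 2.84 CPM in WT normoxia and 25, 32.9 and 20.4 in WT OIR, against 15, 10.6 and 12.4 in Casp1 KO normoxia and 10.7, 7.26 and 9.07 in Casp1 KO OIR. WT OIR was above all other libraries, and the interaction was -2.61 (SE 0.45, adjusted p = 0.00221). Col18a1, collagen XVIII of basement membranes and the precursor of endostatin, gave -1.13 (SE 0.26, adjusted p = 0.0266) and was the 1 called of 20 basement membrane genes (median -0.61). That list had a median of -0.21 and 0 called without WT OIR replicate 2, and 5 called lower and 1 higher without WT OIR replicate 3. OIR raised Col18a1 by 1.37 in WT, and its fitted change in Casp1 KO was 0.23 (adjusted p = 0.59). Hist1h1e, a linker histone that shares an exon region with Hist1h2be, gave -0.74 (SE 0.18, adjusted p = 0.0365) and was the 1 called of 15 histone genes (6.67%).

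The called myelin genes were high in WT normoxia alone. Of 11 myelin and oligodendrocyte genes tested 4 were called higher and 0 lower, with a median of 1.86. The median was 0.73 over those members that reached 10 reads in all 12 libraries and 2.84 without Casp1 KO normoxia replicate 1, and 7 were called without WT OIR replicate 3. For Mbp the 3 libraries gave 97.2, 80.8 and 85.8 CPM in WT normoxia, 21.8, 23.2 and 27.7 in WT OIR, 19, 22.2 and 17.3 in Casp1 KO normoxia and 19.9, 20.2 and 18.6 in Casp1 KO OIR. Mbp, myelin basic protein, was thus far higher in the 3 WT normoxia libraries than in the other 9. Its interaction was 1.86 (SE 0.25, adjusted p = 9.54e-05). Mal, a myelin membrane protein, gave 2.74 (SE 0.62, adjusted p = 0.0245). Cldn11, a claudin of myelin, was at 0 in each Casp1 KO normoxia library and at 13.9 ± 2.29 CPM in WT normoxia, 1.04 ± 0.904 CPM in WT OIR and 0.440 ± 0.393 CPM in Casp1 KO OIR, so its fold is not given, and its adjusted p was 0.0324. The mouse retina itself is not myelinated, and myelin begins in the optic nerve behind the eye. Summed over the 11 tested genes, the level was 505 to 568 CPM in WT normoxia, 301 to 391.7 in WT OIR, 296 to 344 in Casp1 KO normoxia and 418 to 455 in Casp1 KO OIR. The part of optic nerve in these values was not tested.

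The called crystallin genes of the lens were higher in Casp1 KO, and Cryba1 and Crybb1 were high in Casp1 KO OIR alone. All 16 crystallin genes listed were tested, 6 were called higher and 0 lower, each of the 16 was fitted higher, and the median was 0.87. Cryba1 was measured at 125, 112 and 122 CPM in WT normoxia, 127, 113 and 66.5 in WT OIR, 107, 101 and 115 in Casp1 KO normoxia and 232, 238 and 199 in Casp1 KO OIR. In WT, Crybb1 stood at 34.2, 27.6 and 24.2 CPM in normoxia and 37.5, 24.9 and 18.9 in OIR, and in Casp1 KO at 33.8, 25.4 and 29.4 in normoxia and 70, 70.2 and 79 in OIR. For both genes the 3 Casp1 KO OIR libraries stood above the other 9, with interactions of 1.28 (SE 0.22, adjusted p = 0.00179) and 1.39 (SE 0.29, adjusted p = 0.0122). Cryba2 gave 1.34 (SE 0.27, adjusted p = 0.012) and Cryab, also a heat shock protein of glia, 0.97 (SE 0.21, adjusted p = 0.0215). The summed level of the 16 crystallins was 1050 to 1108 CPM in WT normoxia, 675 to 1402 in WT OIR, 1157 to 1208 in Casp1 KO normoxia and 2066 to 2284 in Casp1 KO OIR. Lens genes other than crystallins, 6 of 12 tested and 0 called by edgeR (1 at an unadjusted p under 0.05, 1 by DESeq2), summed to 25.6 to 32.3, 19.5 to 36.5, 23.1 to 33.1 and 55.0 to 70.6 CPM in the same order. Reads of near-identical gamma-crystallins may be split between genes. Exons of Cryab and Hspb2 overlap on opposite strands. The part of lens tissue was not tested.

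Genes of the retinal pigment epithelium, the layer behind the photoreceptors, were called higher in 3 of 15 and lower in 0 (median 0.38). Rpe65, its retinoid isomerase, gave 0.86 (SE 0.19, adjusted p = 0.0211), and Lrat, the acyltransferase that makes its substrate, gave 1.22 (SE 0.27, adjusted p = 0.0261), beside Rlbp1. Rpe65 rose with OIR in Casp1 KO by 0.95 and not by the test in WT (0.09, adjusted p = 0.79). The summed level of the 15 tested genes was 2289 to 2362 CPM in WT normoxia, 2239 to 2598 in WT OIR, 2258 to 2294 in Casp1 KO normoxia and 3050 to 3122 in Casp1 KO OIR. In whole retina, fewer cells of a type and less RNA per cell cannot be told apart, and the part of adhering epithelium was not tested.

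**Figure D4:**
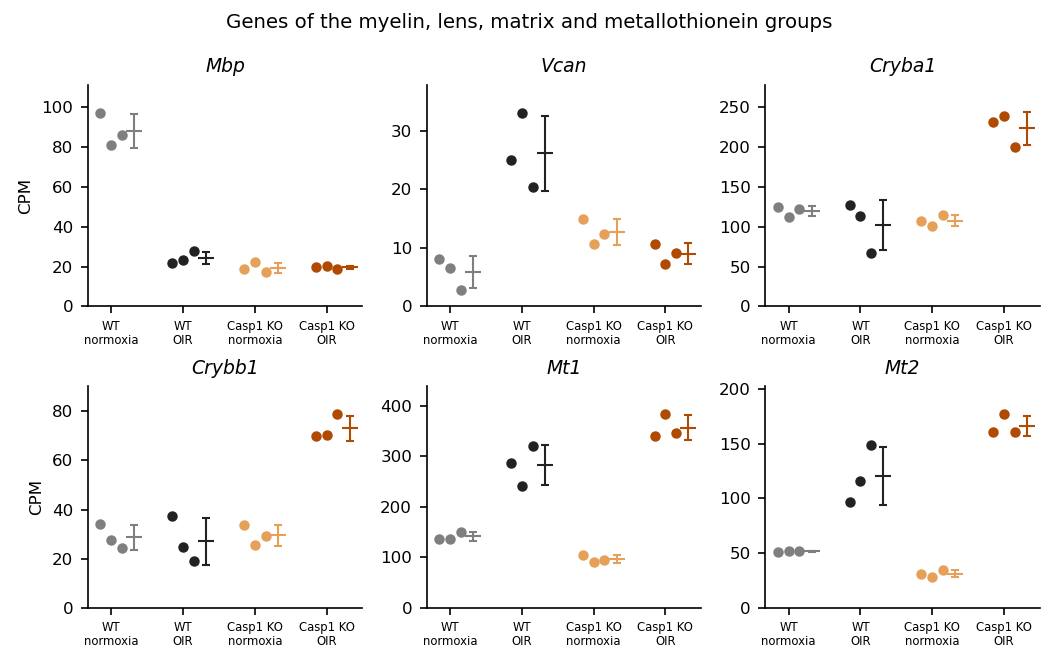
CPM in each of the 12 libraries for 6 genes, with the mean and SD of each group (n = 3) to the right of its points. Mbp is high in WT normoxia alone, Cryba1 and Crybb1 in Casp1 KO OIR alone, Vcan in WT OIR, and Mt1 and Mt2 are higher in OIR than in normoxia under both labels.

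Lists of inflammasome, endothelial, pericyte, VEGF and microglial genes held no called gene. Over all genes tested 0.973% were called and 12.5% had an unadjusted p under 0.05. For lists of this length 0 called is near the first of these shares. Of 32 inflammasome and interleukin 1 genes 15 passed the filter on low counts, and 0 of these passed an adjusted p of 0.05 by edgeR or had an unadjusted p under 0.05, with a median of 0.28. With no filter 30 were tested, and 0 were called by edgeR or by DESeq2, which was run without that filter for every list. The counts by edgeR were also 0 of 12 for NF-kB targets and chemokines (3 at an unadjusted p under 0.05, 0 by DESeq2), 0 of 21 for endothelial tip cells (3 and 0), 0 of 25 for endothelial cells (2 and 1), 0 of 16 for pericytes and smooth muscle (5 and 0), 0 of 8 for VEGF ligands and receptors (1 and 0) and 0 of 22 for microglia and macrophages (2 and 0). Without WT OIR replicate 3 the tip cell, endothelial, microglial and NF-kB lists held 1 called gene each and the pericyte list 3. Adm, adrenomedullin of tip cells and hypoxic cells, had no read in the 3 WT normoxia libraries and 7.84, 6.95 and 1.46 CPM in WT OIR, with 0.549, 0.296 and 0.729 in Casp1 KO normoxia and 4.92, 1.98 and 5.36 in Casp1 KO OIR. Both OIR groups lay above both normoxia groups, and the adjusted p of its interaction was 0.136. Red blood cell genes, 0 of 7 called (5 at an unadjusted p under 0.05, 0 by DESeq2), had a median of -1.22 and summed to 182 to 451 CPM in WT OIR against 197 to 240 in the other groups. Their median was -0.60 without WT OIR replicate 2, and 4 were called lower without WT OIR replicate 3. With no filter on low counts edgeR called 2 of 9 red blood cell genes lower.

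**Figure D5:**
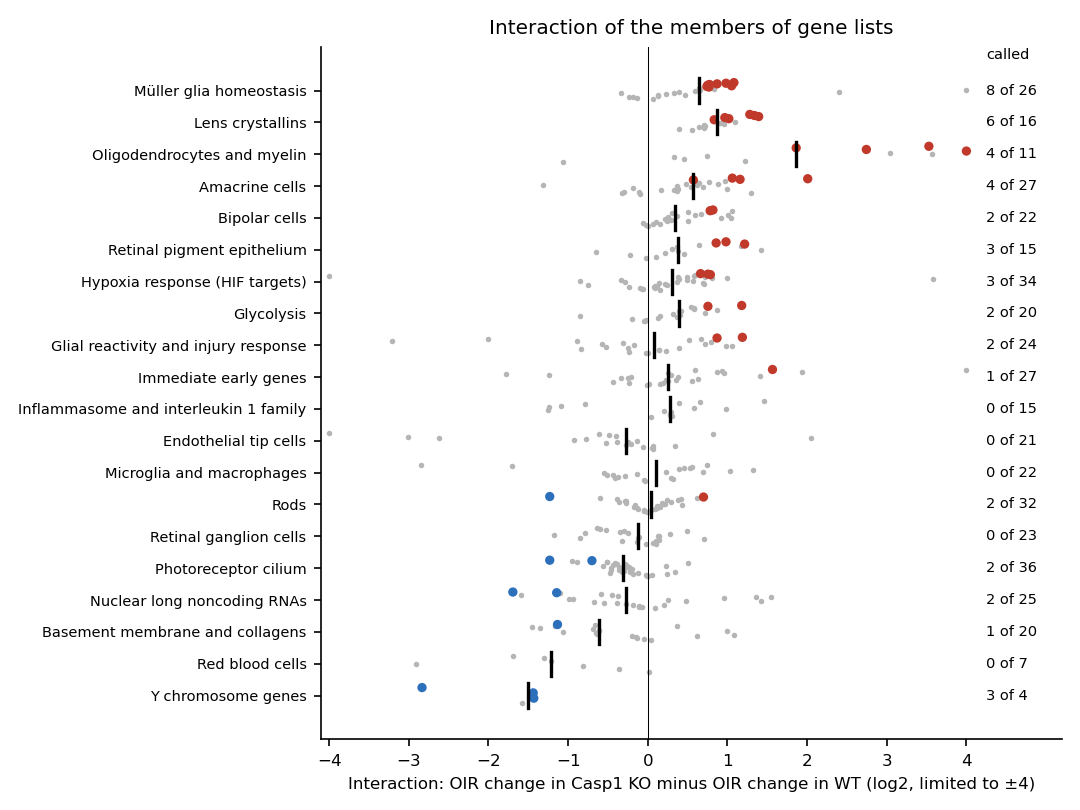
Each row is a gene list and each point a tested member, placed by its interaction on the log2 scale (OIR change in Casp1 KO minus that in WT, limited to 4 either way), with called genes in red or blue, the list's median as a bar, and the count called of those tested at the right. The medians of the Müller glia, crystallin and myelin lists lie at 0.65, 0.87 and 1.86, and that of the Y chromosome genes at -1.51.

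Sex-linked genes moved with the interaction. Xist, the RNA of the inactive X chromosome, was at 434, 2.93 and 120 CPM in WT OIR and at 342 to 519 CPM in the other 9 libraries. The 4 tested Y chromosome genes together gave 124, 263 and 146 CPM in WT OIR, 83.9 to 98.3 in WT normoxia, 111 to 133 in Casp1 KO normoxia and 73.5 to 87.4 in Casp1 KO OIR. Of the 4, 3 were called lower, namely Eif2s3y, a translation factor subunit, at -2.83 (SE 0.56, adjusted p = 0.00908), the RNA helicase gene Ddx3y at -1.44 (SE 0.29, adjusted p = 0.00937) and the demethylase gene Uty at -1.43 (SE 0.36, adjusted p = 0.0476). Every library held reads of both Xist and Ddx3y, with 2926 and 259 reads in WT normoxia replicate 1. In WT OIR replicate 2 they held 16 and 772. Many reads of both in 1 library point to RNA of pups of both sexes, in a mix that is not given. By the values above, the Y sum crossed in the same sense as the 60 lower genes. With that sum added to the model as a covariate, 0 of the 14287 genes passed an adjusted p of 0.05 in edgeR (775 at an unadjusted p under 0.05, 1 gene by limma-voom), and the smallest adjusted p was 0.0738. Of the 139 genes 137 kept their sign and 89 had an unadjusted p under 0.05. The 2 that turned sign were Ddx3y and Uty. Like Eif2s3y they are part of the sum, so the covariate is no test of these 3 genes. The median absolute interaction was 0.93 with the covariate and 1.05 without it, while the standard errors grew by a median factor of 1.78, and 72.9% of the covariate's variance lay between the 4 groups. What sex and what the labelled genotype and OIR contribute cannot be told apart in these libraries. Without Xist and the Y genes in the table, 133 genes were called and all 133 were among the 139. This step leaves the counts of all other genes as they were, so it cannot show what sex contributes.

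How far the calls rested on single libraries differed between genes. Leaving out each library in turn gave 59 to 523 called genes, and 41 of the 139 were called every time. The count was 523, with all 139 among them, without WT OIR replicate 3, the library that stood apart, 185 without WT OIR replicate 1, 88 without WT OIR replicate 2 and 59 to 86 without any of the other 9. 23 of the 48 called genes named here kept the call each time, namely Glul, Egr1, Kcnq1ot1, Rpgrip1, Ptgds, Mbp, Rlbp1, Dmd, Tkt, Clu, Lrtm1, Cryba1, Vcan, Mt2, Slc16a3, Apoe, Guca1b, Dkk3, Mt1, C1ql1, Prox1, Eif2s3y and Ddx3y. Of the others, Cryba2, Crybb1, Hlf and Pnisr lost it in 1 to 3 of the 12 fits, Cacna1f, Rpe65, Cryab, Mal, Lrat, Col18a1, Rtbdn and Cck in 4 to 7 and Cep290, Mif, Cldn11, Uqcrc1, Meg3, Slc2a1, Ndrg2, Slc17a8, Hist1h1e, Uty, Gad2, Tfap2b and Prdx6 in 8 to 11, with highest adjusted p-values of 0.0523 to 0.208. None of the 139 genes changed sign in these fits. By limma-voom 7 of the 48 lost the call, namely Cryab, Mal, Cldn11, Meg3, Ndrg2, Slc17a8 and Cck. Beside the overlaps given above, Mir3076 overlaps an exon of Tkt, Prox1os one of Prox1 and predicted genes those of Cep290 and Slc2a1, while other genes lie in or reach into the introns of Mbp, Dmd, Lrtm1, Cryba1, Vcan, C1ql1, Ddx3y, Lrat, Col18a1 and Gad2, and reads shared between them cannot be told apart.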

How the data were processed

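Retinal RNA was made into QuantSeq 3' FWD libraries and sequenced. The submitters' processing notes name STAR 2.7.5a, HTSeq 0.6.1, edgeR and the build mm10, without roles, and the annotation, the strand setting and the treatment of reads with several matches are not given in the sources used here. The authors deposited raw counts per gene for all 12 libraries in 1 table, and samples were grouped by their labels.

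Counts were fitted in R 4.3.3 with edgeR 4.0.16 (glmQLFit, TMM scaling) as a model of 4 group means over all libraries, and the interaction was tested by glmQLFTest with Benjamini-Hochberg adjustment over 14287 genes at a threshold of 0.05. Genes were kept by filterByExpr (minimum count 10), because without a filter the prior degrees of freedom became infinite and the spread of single genes was ignored. Fold changes used a prior count of 0.125. Standard errors (SE) were derived from the test, as the absolute log2 change divided by the square root of its F value. DESeq2 1.42.0 and limma 3.58.1 (voom) were alternatives, with other scalings, filters, prior counts, a replicate block, a Y chromosome covariate, thinning of WT normoxia replicate 2 and leaving out each library. The count without Xist and Y genes was chosen after seeing the data. The code was tested on simulated data.

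Named genes were those with the smallest p in each direction and class, the largest called changes and called members of 45 gene lists, with predicted genes given in counts only. Some genes that the rule would name are not reported here. The lists and the comparison were chosen with earlier results of these data known. Positions are from GENCODE on GRCm38, and overlaps of genes are stated because strand is unknown. Same-numbered replicates did not deviate together (correlations -0.03 to 0.08), so numbers were not taken as pairs.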

Additional observations from a re-analysis of the deposited data

Results flagged for a closer look

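A difference between the labelled genotypes in the response to OIR, tested as the interaction term itself, was found for 139 genes. The values below are the interactions on the log2 scale of those that are named, and standard errors and adjusted p-values stand in the report.

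The response was higher in Casp1 KO for Glul (1.08), Egr1 (1.56), Ptgds (0.98), Mbp (1.86), Rlbp1 (0.98), Tkt (1.17), Clu (0.87), Lrtm1 (0.82), Cryba1 (1.28), Mt2 (1.19), Slc16a3 (1.18) and Apoe (0.78). It was also higher for Guca1b (0.70), Dkk3 (0.75), Mt1 (0.87), C1ql1 (1.06), Prox1 (0.72), Cryba2 (1.34), Crybb1 (1.39), Hlf (0.72), Rpe65 (0.86), Cryab (0.97), Mal (2.74), Lrat (1.22) and Mif (0.66). Further genes with a higher response were Uqcrc1 (0.61), Slc2a1 (0.76), Rtbdn (0.68), Ndrg2 (0.79), Slc17a8 (1.94), Cck (2.01), Gad2 (1.16), Tfap2b (0.57) and Prdx6 (0.77). Cldn11 was also called higher, with no value given because its Casp1 KO normoxia libraries were all at 0.

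The response was lower in Casp1 KO for Kcnq1ot1 (-1.69), Rpgrip1 (-1.23), Dmd (-0.92), Vcan (-2.61), Eif2s3y (-2.83), Ddx3y (-1.44), Pnisr (-0.97), Cacna1f (-0.77), Col18a1 (-1.13), Cep290 (-0.70), Meg3 (-1.14), Hist1h1e (-0.74) and Uty (-1.43). None of the 139 calls, higher or lower, was kept when the Y chromosome sum, which includes Eif2s3y, Ddx3y and Uty, was added as a covariate.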

How the results depend on the processing

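The count of interaction genes was 139 (79 higher, 60 lower). It was 225 (124 and 101) by DESeq2, which was run on 24484 genes with no such filter, so that both changed, 284 (128 and 156) by the likelihood ratio test, 277 (148 and 129) with no filter on low counts, 74 (26 higher) at an absolute log2 of at least 1, and 0 (0 and 0) with the Y chromosome covariate. In the same order, the genotype difference in normoxia (56 genes) gave 92, 107, 109, 26 and 16, that in OIR (91 genes) gave 282, 164, 255, 21 and 1, and the interaction genes with OIR called in WT alone (79) gave 123, 146, 142, 31 and 0. OIR in WT (992 genes) gave 1633 by limma-voom, 288 at an absolute log2 of at least 1 and 201 with the covariate, and limma-voom gave 122 for the genotype difference in normoxia. OIR in Casp1 KO (492) gave 155 and 126 under the last 2 settings. Called list genes (48) numbered 82 with no filter, 24 at an absolute log2 of at least 1 and 0 with the covariate. Leaving out 1 library gave 59 to 523 interaction genes, 30 to 268 higher, 29 to 255 lower, 647 to 1144 for OIR in WT, 274 to 986 for OIR in Casp1 KO, 19 to 160 for genotype in normoxia, 20 to 847 in OIR, 35 to 233 called in WT alone and 25 to 128 list genes. Each highest count was without WT OIR replicate 3. The covariate, a sum that includes Ddx3y and Uty themselves, turned the sign of Ddx3y (0.24), Uty (0.21), Hbb-bt (0.17), Rgs5 (0.27), Xist (-3.98) and Casp1 (0.39). The cause of these shifts was not tested. The replicate block gave 136 genes, of which 122 were among the 139, and its numbers did not pair the samples. DESeq2 size factors and library size alone moved the median interaction of all genes by -0.004 and -0.018. Of the 139 calls they kept 118 (62 higher, 56 lower) and 116 (60 higher, 56 lower). Cck, Gad2, Tfap2b and Prdx6 lost the call under both, with adjusted p-values of 0.0502 to 0.0637 in edgeR. The filter left out genes with few reads, 17 of 32 inflammasome genes among them, and with no filter 30 were tested and 0 called.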

Other observations

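Several gene lists outside the comparisons above held no called gene by edgeR. Over all genes tested the shares were 0.973% called and 12.5% at an unadjusted p under 0.05. For cones it was 0 of 16 (4 at an unadjusted p under 0.05, 1 by DESeq2), for astrocytes 0 of 10 (3 and 0), for the interferon response 0 of 21 (4 and 0), for complement 0 of 11 (1 and 0) and for the cell cycle 0 of 22 (2 and 0). The unfolded protein response gave 0 of 28 (8 and 1), heat shock 0 of 19 (4 and 1), presynaptic release 0 of 34 (11 and 1) and cholesterol and fatty acid synthesis 0 of 32 (5 and 0). Among 83 cytosolic ribosomal protein genes 0 were called by edgeR (13 at an unadjusted p under 0.05, 0 by DESeq2), with 65 fitted lower and a median interaction of -0.20 on the log2 scale, which was 0.00 without WT OIR replicate 3. DESeq2 was run without the filter on low counts.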
